A study of Mus musculus with 9 samples.

Results

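The 10 genes described here encode Nodal and activin pathway proteins: the ligands Nodal, Gdf3, Inhba and Inhbb, the convertase Pcsk6, the co-receptor Tdgf1, the receptor Acvr2b, and the extracellular inhibitors Lefty1, Lefty2 and Fst. They were chosen by name, with earlier results of these data known, and they stand among 20287 genes listed in at least 1 library. Of the 10, 9 were listed and all 9 had a mean of at least 0.5 FPKM (a fragment count scaled by gene length and library size) over the libraries, the level required for testing, which 13990 genes reached. Inhba was listed in none of the 9 tables and has a value of 0 by the rule for unlisted genes. It is not known whether the annotation held Inhba, so this 0 need not be a measured absence. Fst passed the level through 2 WT libraries, those after LIF withdrawal and from embryoid bodies. The libraries came from E14 mouse embryonic stem cells of strain 129, wild type (WT) or labelled Hbxip knockout (KO). Hbxip, also named Lamtor5, encodes a subunit of the Ragulator complex, which anchors nutrient signalling at the lysosome. Each genotype was profiled in 3 conditions: pluripotent culture, 96 h (day 4) after removal of LIF, a cytokine that sustains self-renewal, and embryoid bodies, which are aggregates in which stem cells differentiate. Each condition held 1 WT and 2 KO libraries of total RNA, and neither the age of the embryoid bodies nor the nature or number of the KO clones was stated in the sources used here.

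Nodal and the activins are ligands of the TGF-beta family that bind type I and type II receptor kinases, and Nodal and Gdf3 also need the co-receptor encoded by Tdgf1 (Cripto). The receptors phosphorylate SMAD2 and SMAD3, which enter the nucleus with SMAD4 and act with FOXH1 and other partners. Nodal, Lefty1 and Lefty2 are textbook targets of the pathway itself, so that Nodal feeds back on its own production while the Lefty proteins hold it in check. In the mouse embryo the pathway patterns the epiblast and drives formation of the primitive streak, the source of mesoderm and definitive endoderm.

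Library totals ran from 10147301 to 10863866 rounded counts, so depth differed little between libraries, and 3 counts in a library equal 0.276 to 0.296 CPM (counts scaled to a common library total). Hbxip reads remained in every KO library: its level was 38.5 to 41.8 FPKM in WT, against 29.1 to 31.0 in KO pluripotent culture, 15.5 to 16.2 in KO after LIF withdrawal and 18.3 to 23.0 in KO embryoid bodies. Its difference passed the test after LIF withdrawal (log2 fold change -1.22, adjusted p = 7.55e-05) and in embryoid bodies (-1.02, adjusted p = 0.000254) and missed it in pluripotent culture (-0.31, adjusted p = 0.0971). The labels do not describe the lesion, so a remaining transcript is only a partial check of the genotype. The pluripotency markers Pou5f1, Sox2, Nanog, Zfp42 and Esrrb summed to 1316 to 2167 FPKM over the 9 libraries, so the labelled stem cell identity had its markers in every library. Summed levels of markers of other cell types were 5.91 to 36.3 FPKM for fibroblasts or feeders, mostly Thy1 and with Postn at 0 in 8 of 9 libraries, 5.06 to 26.1 for extraembryonic endoderm, highest in the KO pluripotent libraries through Amn, and 3.70 to 15.1 for neuroectoderm. In all that follows a fold change is KO over WT, or a differentiating condition over pluripotent culture, with its standard error after ±. P-values are from edgeR's quasi-likelihood test, adjusted by the Benjamini-Hochberg method over all 13990 genes, and a gene was called below 0.05. The spread came from the 3 KO pairs, with 3 residual degrees of freedom, and each lone WT library was assumed to vary as they did. The test also moves the spread of each gene towards a trend over all tested genes. Very small p-values therefore rest in part on that pooling and not on the pairs of the gene alone. Nothing states that the paired libraries came from separate cultures, so the p-values cover only how far these libraries spread.

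The likeness of Lefty1 and Lefty2 is given first, because the estimated counts of these genes depend on how reads were divided between near-identical copies. Both coding sequences are 1104 bases long in the GENCODE M21 transcripts of GRCm38, and 1014 aligned bases (91.8%) are identical. Of all aligned windows of 50 bases, 26.6% are identical in both genes, and the longest identical stretch spans 140 bases.

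The RefSeq table of GRCm38.p6 held a window of 300 bases around the start of 6 members (250 before it and 50 after): Nodal, Inhba, Inhbb, Pcsk6, Tdgf1 and Acvr2b. It held none for Gdf3, Lefty1, Lefty2 and Fst. Each window was searched on both strands for the SMAD box CAGAC, the FOXH1 core TGTGGAT and the E-box CACGTG. Among all 32851 windows of the table, 49.6% held the SMAD box, 3.4% the FOXH1 core and 7.2% the E-box. Matches were found in 2 of the 6 members, both to the SMAD box, and no match overlapped another. Tdgf1 held 1 at position -113 from its start, and Acvr2b held 1 on the opposite strand at position -233. The windows of Tdgf1 and Inhbb are printed because these were the members whose levels ran most alike over the 9 libraries (Pearson r = 0.945 on log2(FPKM + 1), a description across libraries that share their conditions). They are Tdgf1, chr9:110946109-110946408 on the minus strand, with the match in capitals, and Inhbb, chr1:119422199-119422498 on the minus strand, without a match.
Tdgf1: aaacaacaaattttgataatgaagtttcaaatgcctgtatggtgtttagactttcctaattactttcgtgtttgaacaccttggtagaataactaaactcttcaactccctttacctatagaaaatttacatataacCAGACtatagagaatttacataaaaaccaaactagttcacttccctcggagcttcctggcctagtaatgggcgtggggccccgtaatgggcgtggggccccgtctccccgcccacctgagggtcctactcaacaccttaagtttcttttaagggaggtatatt
Inhbb: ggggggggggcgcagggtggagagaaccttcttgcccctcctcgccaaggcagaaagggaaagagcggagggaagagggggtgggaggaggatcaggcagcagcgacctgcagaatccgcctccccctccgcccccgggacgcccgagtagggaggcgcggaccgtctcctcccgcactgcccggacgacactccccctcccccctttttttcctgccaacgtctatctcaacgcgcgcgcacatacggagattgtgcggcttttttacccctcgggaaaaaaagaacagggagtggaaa

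**Figure D1:**
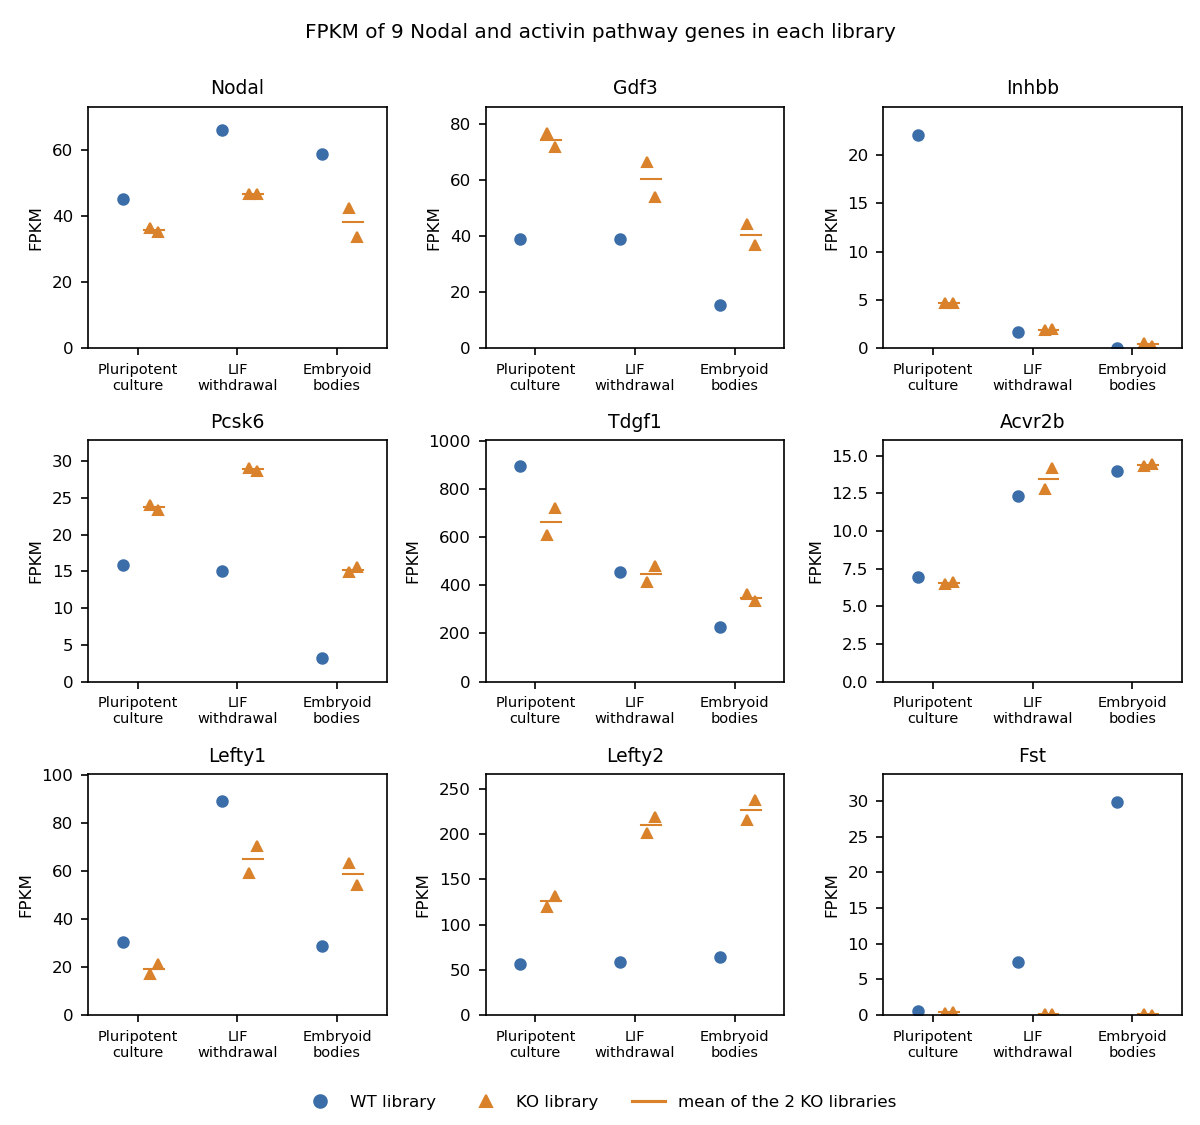
FPKM of each listed member in the 9 libraries, by condition, with WT libraries as circles, KO libraries as triangles and a line at the mean of each KO pair. Lefty2, Gdf3 and Pcsk6 lie higher in both KO libraries than in WT in each condition, while Fst is near 0 in all KO libraries and reaches 29.8 FPKM in WT embryoid bodies.

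Nodal, the ligand that gives the pathway its name, was lower in KO cells in both differentiating conditions. Its level in pluripotent culture was 45.1 FPKM in WT and 36.5 and 35.1 in the KO libraries. Without LIF the level was 66.2 in WT and 46.7 in both KO libraries. Embryoid bodies held 59.0 in WT and 42.6 and 33.8 in KO. Both KO libraries thus lay below WT in each condition. The difference missed the threshold in pluripotent culture (log2 fold change -0.21 ± 0.12, adjusted p = 0.168). After LIF withdrawal Nodal was lower in KO, at a log2 fold change of -0.44 ± 0.12 or a ratio of 0.736 (adjusted p = 0.00999). In embryoid bodies the KO difference was -0.63 ± 0.12, a ratio of 0.645 (adjusted p = 0.00121). In these bulk samples, fewer cells that make Nodal and less Nodal RNA per cell cannot be told apart, which holds for every gene below. Between conditions, Nodal rose with LIF withdrawal in WT (0.58 ± 0.14, adjusted p = 0.0103) and likewise in KO (0.35 ± 0.10, adjusted p = 0.00939). In embryoid bodies it rose in WT (0.41 ± 0.14, adjusted p = 0.0329), and in KO the difference was -0.02 ± 0.10 (adjusted p = 0.902). The test of the difference between these embryoid body responses missed the threshold (-0.42 ± 0.17, adjusted p = 0.063). It passed in the fit without KO embryoid body replicate 1 (-0.60, adjusted p = 0.012). The KO rise with LIF withdrawal was lost without KO pluripotent replicate 2 (0.30, adjusted p = 0.0651). Of the WT rises, DESeq2 did not call the one in embryoid bodies (adjusted p = 0.109), and limma on log2(FPKM + 1) called neither (adjusted p = 0.0526 after LIF withdrawal and 0.0887 in embryoid bodies).

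Gdf3, a Nodal-related ligand that uses the same co-receptor, went the other way and rose in KO in all 3 conditions. Pluripotent culture gave 38.8 FPKM in WT and 76.7 and 71.7 in KO. After LIF withdrawal it was 39.0 in WT and 66.6 and 53.8 in KO. For embryoid bodies the values were 15.2 in WT and 44.1 and 36.7 in KO. No KO library overlapped the WT library of its condition. The rise was 2.08-fold in pluripotent culture (log2 fold change 1.06 ± 0.15, adjusted p = 8.76e-05). It was 1.61-fold after LIF withdrawal (0.69 ± 0.15, adjusted p = 0.00295) and 2.64-fold in embryoid bodies (1.40 ± 0.17, adjusted p = 4.48e-05). From pluripotent culture to embryoid bodies Gdf3 fell by 1.33 ± 0.19 in WT (adjusted p = 0.000174), while the KO fell by 0.99 ± 0.12 (adjusted p = 1.57e-05), both as log2 values. LIF withdrawal left WT at 0.04 ± 0.17 (adjusted p = 0.913), and Gdf3 fell in KO by 0.33 ± 0.11 (adjusted p = 0.0221). That fall was not called without KO pluripotent replicate 1 (-0.28, adjusted p = 0.115) or without KO LIF withdrawal replicate 2 (-0.17, adjusted p = 0.215). Neither difference between the WT and KO responses passed (adjusted p = 0.186 and 0.229), although the one for LIF withdrawal did without KO LIF withdrawal replicate 1 (-0.56, adjusted p = 0.0318).

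Inhbb encodes the beta B subunit of activins and inhibins, and the direction of its difference between genotypes changed with the condition. In pluripotent culture its level was 22.0 FPKM in WT and 4.67 and 4.62 in KO, from 1004, 208 and 202 counts. Without LIF the level was 1.69 in WT and 1.84 and 1.95 in KO. In embryoid bodies it was near the lower limit of these libraries, at 0.04 FPKM in WT and 0.50 and 0.26 in KO, from 2, 22 and 12 counts. The WT pluripotent library stood far above all others, and both KO libraries lay above WT in each differentiating condition. In pluripotent culture Inhbb fell in KO to a ratio of 0.230 (log2 fold change -2.12 ± 0.15, adjusted p = 4.71e-07). After LIF withdrawal the difference was 0.23 ± 0.22 (adjusted p = 0.468). In embryoid bodies the KO to WT ratio of counts was 8.42, with a 95% exact binomial interval of 2.16 to 72.3 that covers counting error only. That rise was called (adjusted p = 0.00498), but not by limma on log2(FPKM + 1) (adjusted p = 0.0876). Within WT, Inhbb fell by 3.68 ± 0.21 with LIF withdrawal on the log2 scale (adjusted p = 4.72e-07), and embryoid bodies held 0.00204 of the pluripotent level (interval 0.000247 to 0.0074). Within KO it fell by 1.33 ± 0.16 with LIF withdrawal (adjusted p = 1.94e-05), and in embryoid bodies it fell by 3.71 ± 0.21 (adjusted p = 5.63e-08). The KO responses differed from those of WT for LIF withdrawal (2.35 ± 0.27, adjusted p = 7.48e-05) and for embryoid bodies (5.11 ± 0.63, adjusted p = 8.34e-05). For Inhba, the beta A subunit, no library listed a value.

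Pcsk6 encodes PACE4, a proprotein convertase that cleaves Nodal and related precursors into active ligands, and it rose in KO in every condition. Its level in pluripotent culture was 15.8 FPKM in WT and 24.1 and 23.4 in KO. After LIF withdrawal it was 15.0 in WT and 29.1 and 28.7 in KO. Embryoid bodies held 3.17 in WT and 14.9 and 15.6 in KO. The KO pairs were close to each other and above WT throughout, most widely in embryoid bodies. The rises were 1.63-fold (log2 fold change 0.71 ± 0.09, adjusted p = 6.73e-05), 2.01-fold (1.01 ± 0.10, adjusted p = 6.92e-06) and 4.80-fold (2.26 ± 0.12, adjusted p = 1.38e-07), in that order of conditions. From pluripotent culture to embryoid bodies Pcsk6 fell by 2.31 ± 0.13 in WT (adjusted p = 2.44e-07) and, in KO, fell by 0.75 ± 0.08 (adjusted p = 4.89e-06). The embryoid body response differed between genotypes by 1.56 ± 0.16 (adjusted p = 2e-05). With LIF withdrawal WT was at -0.05 ± 0.11 (adjusted p = 0.793), and Pcsk6 rose in KO by 0.25 ± 0.07 (adjusted p = 0.0108), a call not made by DESeq2 (adjusted p = 0.0902) nor without KO pluripotent replicate 2 (0.21, adjusted p = 0.0806) or KO LIF withdrawal replicate 1 (0.21, adjusted p = 0.0615). The difference between those 2 responses missed the threshold (0.30 ± 0.13, adjusted p = 0.104).

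Tdgf1, which encodes the co-receptor Cripto, was the most highly expressed member per gene length. In pluripotent culture its level was 895 FPKM in WT and 610 and 720 in KO. Without LIF the level was 454 in WT and 412 and 480 in KO. For embryoid bodies the values were 228 in WT and 362 and 336 in KO. The KO libraries were below WT in pluripotent culture, on either side of it after LIF withdrawal and above it in embryoid bodies. Tdgf1 fell in KO pluripotent culture to a ratio of 0.808 (log2 fold change -0.31 ± 0.10, adjusted p = 0.0249), but this call rested on KO replicate 1, without which it was -0.21 (adjusted p = 0.158). After LIF withdrawal the difference was 0.04 ± 0.11 (adjusted p = 0.822). In embryoid bodies Tdgf1 rose 1.52-fold in KO (0.61 ± 0.11, adjusted p = 0.00096). Tdgf1 was lower in both genotypes outside pluripotent culture. With LIF withdrawal it fell by 0.95 ± 0.12 in WT (adjusted p = 0.000187) and by 0.61 ± 0.09 in KO (adjusted p = 6.79e-05). In embryoid bodies it fell by 1.95 ± 0.13 in WT (adjusted p = 5.22e-07) and by 1.04 ± 0.09 in KO (adjusted p = 1.04e-06). The embryoid body response differed between genotypes by 0.91 ± 0.15 (adjusted p = 0.000521). The difference in the LIF withdrawal response missed the threshold (0.34 ± 0.15, adjusted p = 0.0956) and passed without KO LIF withdrawal replicate 1 (0.42, adjusted p = 0.047) or KO pluripotent replicate 2 (0.44, adjusted p = 0.0435).

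Acvr2b, a type II receptor kinase shared by Nodal, activins and GDFs, was the member whose level followed the condition and for which no difference between genotypes was called. Its level in pluripotent culture was 6.94 FPKM in WT and 6.50 and 6.60 in KO. After LIF withdrawal it was 12.3 in WT and 12.8 and 14.2 in KO. In embryoid bodies it was 14.0 in WT and 14.3 and 14.4 in KO. The libraries of pluripotent culture were the lowest, and WT and KO lay close together in each condition. The differences between KO and WT were 0.04 ± 0.09, 0.19 ± 0.09 and 0.03 ± 0.09 on the log2 scale (adjusted p = 0.748, 0.108 and 0.79). Acvr2b rose with LIF withdrawal in WT (0.85 ± 0.10, adjusted p = 0.000144) and KO (1.01 ± 0.07, adjusted p = 3.56e-07). It rose in embryoid bodies in WT (1.03 ± 0.10, adjusted p = 1.63e-05) and KO (1.02 ± 0.07, adjusted p = 3.22e-07). The differences between the genotypes' responses were 0.15 ± 0.13 and -0.01 ± 0.13 (adjusted p = 0.392 and 0.981).

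**Figure D2:**
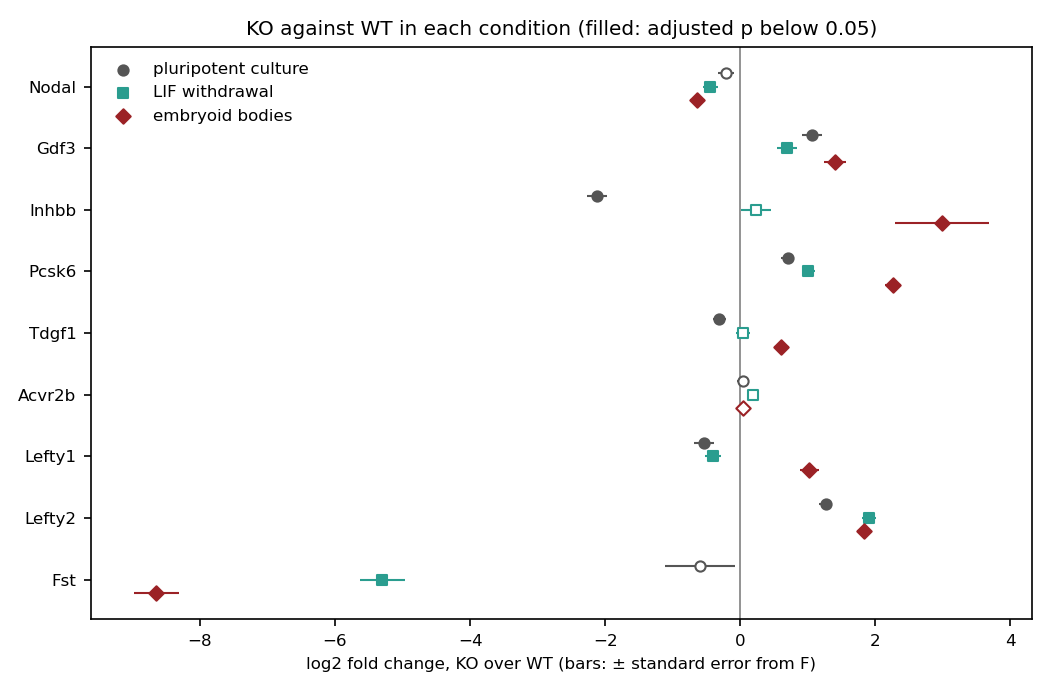
Log2 fold change of KO over WT for the 9 tested members in the 3 conditions, with standard errors as bars and filled symbols where the difference was called. Gdf3, Pcsk6 and Lefty2 are above 0 in all 3 conditions, Inhbb, Tdgf1 and Lefty1 change sign between pluripotent culture and embryoid bodies, and Fst reaches -8.65.

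Lefty2 and Lefty1 encode secreted inhibitors that bind Nodal and its co-receptor. Lefty2 was higher in every KO library. In pluripotent culture its level was 56.8 FPKM in WT and 119 and 132 in KO. Without LIF the level was 58.4 in WT and 202 and 219 in KO. Embryoid bodies held 63.7 in WT and 215 and 238 in KO. WT libraries stayed between 56.8 and 63.7 while the KO libraries were well above them in each condition and higher still after differentiation. Lefty2 rose in KO 2.41-fold in pluripotent culture (log2 fold change 1.27 ± 0.10, adjusted p = 1.05e-06). It rose 3.75-fold after LIF withdrawal (1.91 ± 0.10, adjusted p = 1.01e-07) and 3.54-fold in embryoid bodies (1.83 ± 0.10, adjusted p = 1.52e-07). The WT responses to LIF withdrawal (0.07 ± 0.11, adjusted p = 0.716) and to embryoid body culture (0.19 ± 0.11, adjusted p = 0.211) missed the threshold. In KO, Lefty2 rose by 0.71 ± 0.07 (adjusted p = 6.73e-06) and 0.74 ± 0.07 (adjusted p = 4.45e-06). The genotypes' responses differed by 0.64 ± 0.13 (adjusted p = 0.0035) and 0.56 ± 0.13 (adjusted p = 0.00568).

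Lefty1 had another pattern. Its level in pluripotent culture was 30.3 FPKM in WT and 17.2 and 21.1 in KO. After LIF withdrawal it was 89.4 in WT and 59.2 and 70.6 in KO. For embryoid bodies the values were 28.8 in WT and 63.5 and 54.0 in KO. The KO libraries were below WT in the former conditions and above it in embryoid bodies. Lefty1 fell in KO pluripotent culture by 0.54 ± 0.15 log2 units (adjusted p = 0.00792), which was not called without KO pluripotent replicate 1 (-0.41, adjusted p = 0.0562). It was also lower in KO after LIF withdrawal (-0.40 ± 0.12, adjusted p = 0.0218), a call not made by DESeq2 (adjusted p = 0.091), by limma on log2(FPKM + 1) (adjusted p = 0.0731) or without KO LIF withdrawal replicate 1 (-0.30, adjusted p = 0.104). In embryoid bodies it rose 2.03-fold (1.02 ± 0.14, adjusted p = 0.000129). LIF withdrawal raised Lefty1 by 1.59 ± 0.15 in WT (adjusted p = 2.28e-05) and, in the KO cells, by 1.72 ± 0.12 (adjusted p = 1.65e-07), and these responses did not differ beyond the spread (0.14 ± 0.19, adjusted p = 0.623). The embryoid body responses did: WT was at -0.05 ± 0.16 (adjusted p = 0.83), Lefty1 rose in KO by 1.51 ± 0.12 (adjusted p = 5.17e-07), and the difference was 1.56 ± 0.20 (adjusted p = 0.000105).

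The values of Lefty1 and Lefty2 were not separate measurements. Their expected counts were fractional in part, yet the sum of both was a whole number in all 9 libraries, within 0.015, and no other gene complemented Lefty1 in this way. Such sums arise when whole reads that match both copies are divided between them, and a read that lies within a stretch identical in both matches both. The share assigned to Lefty2 was 74.4% in WT and 91.5% and 90.6% in KO in pluripotent culture. Without LIF the share was 50.3% in WT and 84.1% and 82.8% in KO, and in embryoid bodies it was 77.4% in WT and 84.0% and 87.2% in KO. The WT library after LIF withdrawal had the most even division, and every KO library leaned further to Lefty2 than the WT library of its condition. Added together, Lefty1 and Lefty2 held 191 CPM in WT and 327 and 365 in KO in pluripotent culture. After LIF withdrawal the sum was 291 in WT and 600 and 661 in KO, and in embryoid bodies it was 206 in WT and 642 and 682 in KO. The sum rose in KO in each condition, with log2 fold changes of 0.98 ± 0.09, 1.18 ± 0.09 and 1.68 ± 0.10 (adjusted p = 5.3e-06, 1.8e-06 and 2.21e-07). The KO and WT responses of the sum differed for embryoid bodies (0.70, adjusted p = 0.00112) and not beyond the spread for LIF withdrawal (0.20, adjusted p = 0.249), where Lefty2 alone had differed. With LIF withdrawal the sum rose in WT (0.63, adjusted p = 0.00136), where Lefty2 alone had missed the threshold. The lower Lefty1 levels called in KO, the difference in the LIF withdrawal response of Lefty2 and its WT response to LIF withdrawal are therefore uncertain. They can depend on how shared reads were divided, and the number of shared reads was not measured. Between 50.3% and 91.5% of the sum was assigned to Lefty2, so the sum largely follows Lefty2. It cannot tell whether Lefty1 itself was lower in KO. The sum was tested after the values of both genes had been seen.

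**Figure D3:**
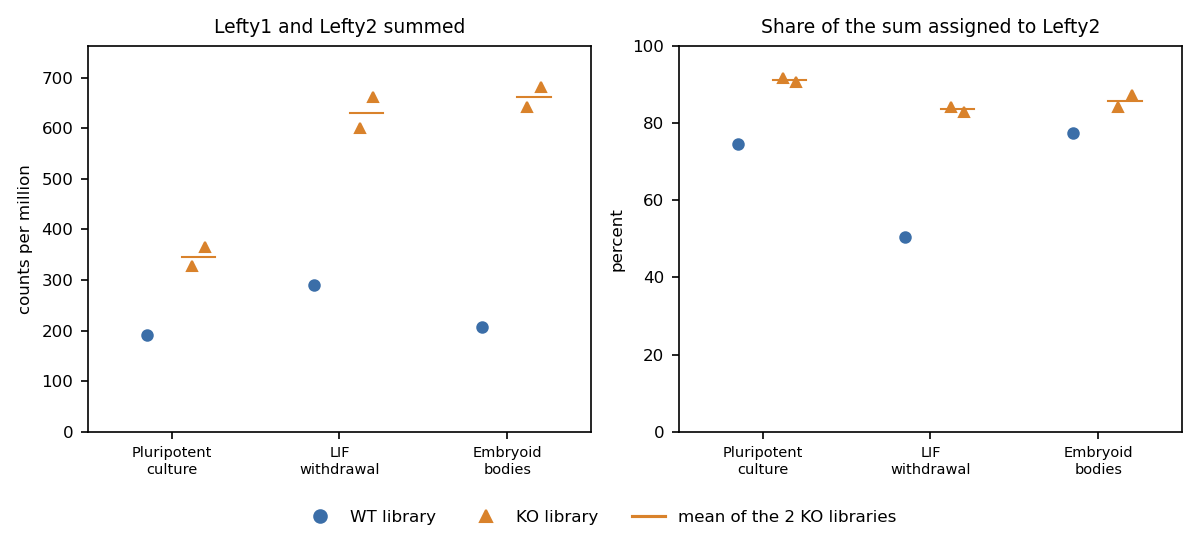
Left, summed CPM of Lefty1 and Lefty2, and right, the percent of that sum assigned to Lefty2, with 1 point per library by condition and lines at the mean of the KO pair. In both panels the KO libraries lie above the WT library of their condition, and the share runs from 50.3% in WT after LIF withdrawal to 91.5% in a KO pluripotent library.

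Fst encodes follistatin, a secreted protein that binds activins and blocks their access to receptors, and it was the member with the widest differences. In pluripotent culture its level was 0.58 FPKM in WT and 0.34 and 0.38 in KO, from 17, 9 and 11 counts. After LIF withdrawal it was 7.49 in WT and 0.16 and 0.21 in KO, from 227, 5 and 6 counts. In embryoid bodies it was 29.8 in WT and 0.15 and 0.00 in KO, from 843, 4 and 0 counts. Fst was low in all pluripotent libraries, climbed in the differentiating WT libraries and stayed near 0 in every KO library. Only through those differentiating WT libraries did it pass the level required for testing. The filter itself thus favours calls of lower in KO and of a rise in WT for Fst. In pluripotent culture the KO to WT ratio of counts was 0.609, with an interval of 0.303 to 1.24 (adjusted p = 0.363), so a difference was not detectable at this depth. After LIF withdrawal the level was 42.0-fold lower in KO (interval 23.1 to 85.4), with a log2 fold change of -5.30 ± 0.34 (adjusted p = 3.56e-07). Over both KO embryoid body libraries the level was 426-fold lower (interval 166 to 1566, adjusted p = 8.83e-09). The KO embryoid body replicate without a count was at least 288-fold below WT, against 3 counts in that library. WT Fst rose by 3.75 ± 0.35 with LIF withdrawal (adjusted p = 1.79e-05) and by 5.68 ± 0.32 in embryoid bodies (adjusted p = 2.01e-07) on the log2 scale. In KO, LIF withdrawal gave -0.96 ± 0.55 (adjusted p = 0.156). In KO embryoid bodies the ratio to pluripotent culture was 0.196 (interval 0.0488 to 0.586), which was called (adjusted p = 0.01) but not without KO embryoid body replicate 2 (adjusted p = 0.0818). The responses differed between genotypes for LIF withdrawal (-4.71 ± 0.68, adjusted p = 0.000355) and for embryoid bodies (-8.06 ± 0.78, adjusted p = 1.55e-05). The latter value ran from -12.12 to -7.08 when 1 KO embryoid body library was left out, the former without replicate 1, where no KO count remained.

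Markers of the primitive streak were, like Fst, lower in the differentiating KO libraries than in the WT library of the same condition. Of T, Mixl1, Eomes, Gsc and Wnt3, 2 of 5 were called lower in KO in pluripotent culture, 4 of 5 after LIF withdrawal and 5 of 5 in embryoid bodies, where 26.3%, 17.4% and 17.7% of all tested genes were called lower. None of the 5 was called higher. The calls in pluripotent culture were Eomes and Wnt3. Wnt3 rested there on 6 counts in WT against 0 and 1 in KO (adjusted p = 0.0444). T, Gsc and Wnt3 passed the level required for testing through the differentiating WT libraries, as Fst did, so the filter itself favours a call of lower in KO for them. The summed level of all 5 markers was 6.50 FPKM in WT and 3.66 to 3.99 in KO in pluripotent culture. Without LIF the sum was 47.7 in WT and 11.4 to 15.1 in KO, and in embryoid bodies it was 71.0 in WT and 15.3 to 15.4 in KO. Eomes alone held 10.4 and 14.2 FPKM in KO after LIF withdrawal and 14.8 and 14.9 in KO embryoid bodies. Unlike Fst, Eomes rose within KO with LIF withdrawal (2.11 ± 0.14 log2 units, adjusted p = 2.05e-07) and in embryoid bodies (2.31 ± 0.14, adjusted p = 9.64e-08). Its responses did not differ between genotypes beyond the spread (0.01 ± 0.22, adjusted p = 0.994, and -0.49 ± 0.23, adjusted p = 0.113). Gsc was at 0 in both KO libraries of pluripotent culture and of embryoid bodies and in KO LIF withdrawal replicate 1. Wnt3 was at 0 in KO pluripotent replicate 1 and KO embryoid body replicate 2. The part of such cells in the Fst result was not tested.

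Markers of other states also differed between genotypes. Of the 5 pluripotency markers, 1 was called higher and 3 lower in KO pluripotent culture, and 3 were called higher and 1 lower in each differentiating condition. Esrrb had 64.5 FPKM in WT embryoid bodies and 217 and 207 in KO, a 3.28-fold rise in KO (adjusted p = 2.34e-07), and Zfp42 had 214 in WT and 387 and 359 in KO, a 1.73-fold rise (adjusted p = 3.15e-05). Sox2 was also called higher in KO embryoid bodies (log2 fold change 0.35, adjusted p = 0.00869), Nanog was called lower (-0.38, adjusted p = 0.0218), and Pou5f1 was not called (0.12, adjusted p = 0.321). Nanog was lower in KO in pluripotent culture (-0.60, adjusted p = 9e-04) and after LIF withdrawal (-0.33, adjusted p = 0.0467) as well. Of the members, Gdf3, Inhbb, Pcsk6, Tdgf1, Lefty1 and Lefty2 were called higher in KO embryoid bodies, and Nodal and Fst lower. The neuroectoderm markers were split, since after LIF withdrawal Sox1 was at 0.37 FPKM in WT and 8.99 and 8.82 in KO (adjusted p = 1.05e-06), while Nes was at 12.8 in WT and 1.43 and 1.60 in KO (adjusted p = 5.82e-08). Col1a1, of the fibroblast list, was lower in KO in each condition, at 1.96 FPKM in WT against 0.19 and 0.18 in pluripotent culture, 2.05 against 0.26 and 0.54 after LIF withdrawal, and 5.81 against 1.33 and 1.52 in embryoid bodies. The part of these differences in the members' results was not tested.

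**Figure D4:**
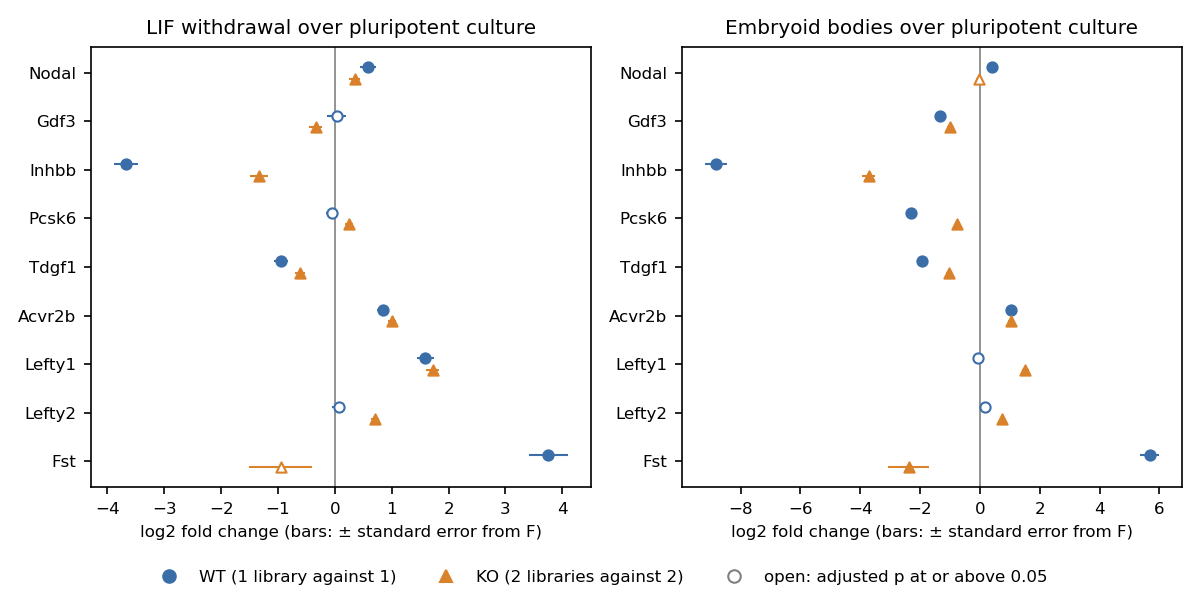
Log2 fold change from pluripotent culture to LIF withdrawal and to embryoid bodies for each tested member, with WT as circles, KO as triangles, standard errors as bars and open symbols where the change was not called. The WT and KO symbols of Acvr2b lie close together in both panels, and those of Fst and Inhbb lie farthest apart.

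Counted by comparison, KO differed from WT in 6 of the 9 tested members in pluripotent culture, 3 higher (Gdf3, Pcsk6, Lefty2) and 3 lower (Inhbb, Tdgf1, Lefty1), where 51.8% of all tested genes were called, 25.5% higher and 26.3% lower. After LIF withdrawal the same 3 were higher and Nodal, Lefty1 and Fst were lower, against 35.8% of all genes, 18.4% higher and 17.4% lower. In embryoid bodies 8 of 9 were called, with 6 higher (Gdf3, Inhbb, Pcsk6, Tdgf1, Lefty1, Lefty2) and 2 lower (Nodal, Fst), where 37.2% of all genes were called, 19.4% higher and 17.7% lower. In embryoid bodies the median log2 fold change of the members was 1.02, against 0.00 over all tested genes, while in pluripotent culture it was -0.21 against -0.01, and after LIF withdrawal 0.19 against 0.00. The embryoid body median is the value of Lefty1 itself. Lefty1 and Lefty2 are counted here as separate members although they were not separate measurements. Their sum was higher in KO in each condition (0.98, 1.18 and 1.68), also where Lefty1 is counted as lower. Since most tested genes were called in pluripotent culture, a call there does not set a member apart. The calls of Fst as lower were favoured by the filter, as given above.

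For the change of condition, LIF withdrawal changed 6 of 9 members in WT, 4 higher and 2 lower, where 20.5% of all genes were called, 11.6% higher and 8.9% lower. In KO it changed 8 of 9, 5 higher and 3 lower, where 59.2% were called, 30.2% higher and 29% lower. Embryoid body culture changed 7 of 9 in WT, 3 higher and 4 lower, against 38.6% of all genes, 19.7% higher and 18.9% lower. In KO it changed 8 of 9, 3 higher and 5 lower, against 61% of all genes, 31% higher and 30% lower. The shares of WT and KO are not comparable as they stand, because the KO contrasts have 2 libraries in each group and the WT contrasts 1. The response to LIF withdrawal differed between genotypes in 3 of 9 members (Inhbb and Lefty2 upward, Fst downward), against 32.3% of all genes, 17.5% higher and 14.9% lower, so the members did not exceed the background. The response to embryoid body culture differed in 6 of 9 (Inhbb, Pcsk6, Tdgf1, Lefty1 and Lefty2 upward, Fst downward), against 41.8% of all genes, 22.4% higher and 19.5% lower. Lefty1 and Lefty2 are again counted separately, and the limit of the filter holds for Fst here too. Comparisons with pluripotent culture share those libraries, and the same WT libraries stand in both kinds of contrast.

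Of 28 further genes of the pathway, 27 were listed and 24 tested. The receptor Acvr1c was listed in none, and it is not known whether the annotation held it. Pcsk5, Cfc1 and Cer1 were under the filter. In KO, 6 were called higher and 6 lower in pluripotent culture, 3 higher and 4 lower after LIF withdrawal, and 3 higher and 6 lower in embryoid bodies, with median log2 fold changes of -0.09, 0.00 and -0.13. Over all tested genes 51.8%, 35.8% and 37.2% were called, so these counts lay near the background. Smad3, which encodes a signal transducer of the pathway, was the largest of these differences in pluripotent culture. Its level there was 4.69 FPKM in WT and 0.37 and 0.55 in KO, well separated, and it fell by 3.21 ± 0.25 log2 units (adjusted p = 1.08e-06). Smad3 was also lower in KO after LIF withdrawal (-1.06 ± 0.19, adjusted p = 0.000974) and in embryoid bodies (-1.36 ± 0.20, adjusted p = 0.00023). Within KO, Smad3 rose by 2.67 ± 0.23 with LIF withdrawal (adjusted p = 1.53e-06), and this response exceeded that of WT by 2.15 ± 0.33 (adjusted p = 0.000503).

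Foxh1, the DNA-binding partner of SMAD2 and SMAD3, rose in KO pluripotent culture, from 24.8 FPKM in WT to 65.8 and 65.2 in KO (1.52 ± 0.11, adjusted p = 5.31e-07). Its responses to LIF withdrawal had opposite signs: Foxh1 rose in WT by 1.22 ± 0.12 (adjusted p = 3.31e-05) and fell in KO by 0.38 ± 0.08 (adjusted p = 0.00142), a difference of -1.59 ± 0.15 (adjusted p = 1.92e-05). Among feedback genes, Skil, which encodes the SMAD repressor SnoN, fell in KO pluripotent culture from 19.3 FPKM in WT to 4.14 and 6.39 (-1.79 ± 0.17, adjusted p = 5.32e-06). Pmepa1, a negative regulator induced by TGF-beta signals, rose there from 7.71 to 21.0 and 18.5 (1.48 ± 0.13, adjusted p = 2.87e-06). Smad7, an inhibitory SMAD named after its values were seen, rose in KO in all 3 conditions (0.45 ± 0.09, 0.58 ± 0.09 and 0.35 ± 0.10, adjusted p = 0.00131, 0.000494 and 0.0132), the last of which DESeq2 did not call (adjusted p = 0.0724) and which was lost without KO embryoid body replicate 2 (adjusted p = 0.058).

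Some pathway genes were called in opposite directions in pluripotent culture and in embryoid bodies. Acvr1b, the type I receptor kinase for Nodal and activin, fell in KO pluripotent culture by 0.96 ± 0.12 log2 units (adjusted p = 5.13e-05) and rose in KO embryoid bodies by 0.62 ± 0.12 (adjusted p = 0.00191). The embryoid body response of Acvr1b differed between genotypes by 1.58 ± 0.18 (adjusted p = 3.81e-05). Drap1, a corepressor that binds FOXH1, rose in KO pluripotent culture by 0.78 ± 0.10 (adjusted p = 7.12e-05) and fell in embryoid bodies by 0.28 (adjusted p = 0.0421). Furin, a proprotein convertase, rose in KO pluripotent culture by 0.39 (adjusted p = 0.0363) and fell in embryoid bodies by 0.33 (adjusted p = 0.0496). DESeq2 did not call Furin in either condition (adjusted p = 0.178 and 0.287) or Drap1 in embryoid bodies (adjusted p = 0.249). Smaller falls in KO were called for the antagonist Fstl3 (-0.96, adjusted p = 0.0248) and the ligand Gdf1 (-0.79, adjusted p = 0.00559) after LIF withdrawal, and for the pseudoreceptor Bambi in embryoid bodies (-0.77, adjusted p = 0.019). None of these was called by DESeq2, whose adjusted p was 0.275 for Fstl3, 0.123 for Gdf1 and 0.176 for Bambi. By edgeR, Gdf1 was also called lower in KO pluripotent culture (-0.94 ± 0.23, adjusted p = 0.00427).

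**Figure D5:**
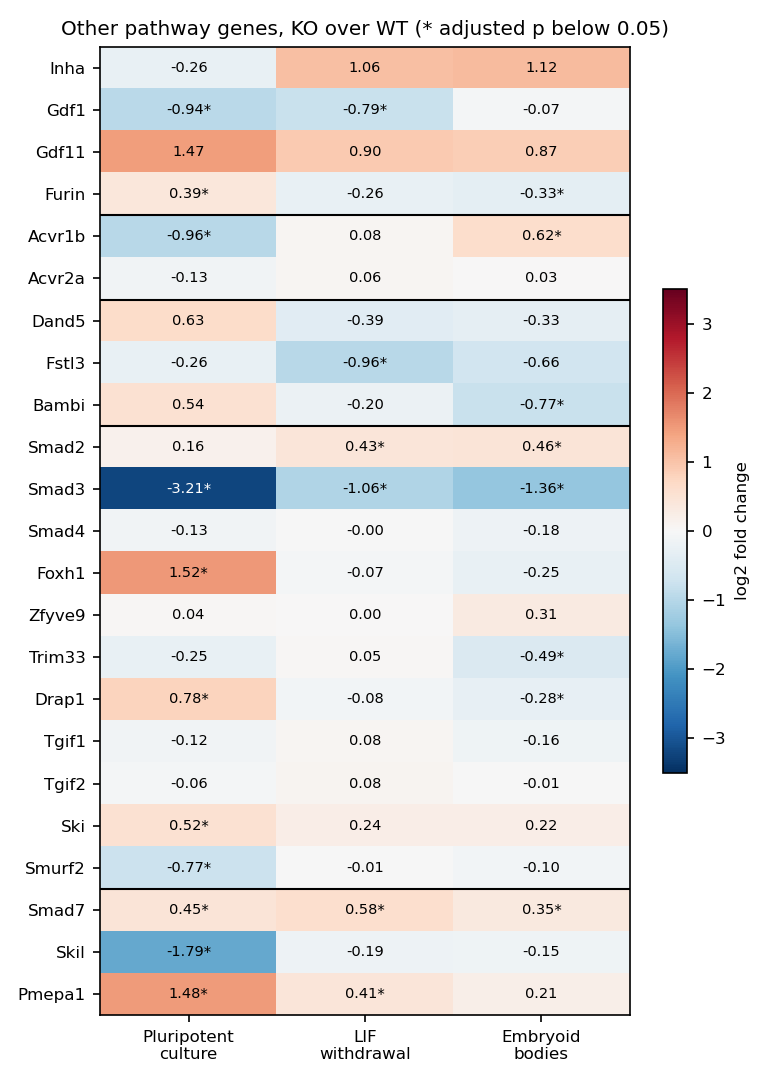
Log2 fold change of KO over WT for tested further pathway genes, as a grid of genes by condition with lines between roles and a star on each call. Smad3 is lowest in pluripotent culture at -3.21, and Foxh1 is highest there at 1.52.

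Patterns over the 9 libraries were compared by Pearson's r of log2(FPKM + 1) among 12010 genes with a mean of at least 1 FPKM, as a description, since these libraries share conditions and genotypes. Among the genes most like Fst were Sema6a (r = 0.990) and Sp5 (0.988). For Tdgf1 they were Siah2 (0.975), Fam120aos (0.974) and Hars (0.963). For Lefty1 they were Ankrd17 (0.978), Ptprg (0.969) and Mia3 (0.967), and for Nodal Nudt11 (0.949), Ubqln2 (0.941) and Rap2b (0.938). None of the 10 members was among them. Between members, Gdf3 and Pcsk6 ran together (r = 0.942), and the strongest opposite pair was Pcsk6 and Fst (r = -0.842), followed by Tdgf1 and Acvr2b (r = -0.836).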

How the data were processed

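RNA-seq libraries of total RNA from WT and Hbxip-KO E14 cells (1 WT and 2 KO in each of 3 conditions) were grouped by GEO's labels. The submitters' processing notes name Bowtie2 and the genome build mm8. Columns of the deposited tables hold an expected count, estimated and partly fractional, and an FPKM value for each gene. Which quantifier, annotation and strand setting were used is not given in the sources used here. Per the file headers the FPKM values are those of the authors and correct for gene length and depth.

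Rounding gave whole counts, and a gene not listed in a library was set to 0 there. Of 20287 gene IDs, 20234 were matched by ID and 9 by accession to RefSeq names (GRCm38.p6), and 44 kept their IDs. Since mm8 was not at hand, the printed GRCm38 coordinates and sequences are a reference and not the alignment target. Testing covered genes averaging 0.5 FPKM or more and used edgeR 4.0.16 in R 4.3.3 (quasi-likelihood, TMM factors 0.94 to 1.04, 1 mean per group, biological coefficient of variation 6.52%). A standard error is the log2 fold change divided by the square root of F. For counts of a few reads, ratios carry exact binomial intervals at 95%, which cover counting error only. Replicates of each KO pair differed by more than counting noise (chi-square per degree of freedom 2.88 to 4.37), so the fit kept them as separate libraries. For the ratios with binomial intervals the counts of each KO pair were added, so those intervals leave out this extra spread.

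The members, the list of 28 other pathway genes, the marker lists and the rule for naming genes were chosen with earlier results of these data known. That rule names all members, up to 4 called pathway genes with the largest change in each comparison of KO with WT, and those called in opposite directions. Some genes and sequences that it would name are not reported here. Alternatives were DESeq2 1.42.0, RLE size factors, no filter, limma 3.58.1 on log2(FPKM + 1) and log2(FPKM + 0.1), a replicate block, and leaving out each library. The sum of Lefty1 and Lefty2 was added after the data were seen. The fit was tested on counts simulated with the same spread for every gene and library, with changes only in genes above a minimum level. That test does not check genes with few counts or the assumption made for the lone WT libraries.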

Additional observations from a re-analysis of the deposited data

Results flagged for a closer look

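The following responses to differentiation differed between KO and WT by the test of the difference itself (edgeR's quasi-likelihood test, adjusted over all genes), given as KO minus WT on the log2 scale. For LIF withdrawal they were Inhbb (2.35, adjusted p = 7.48e-05), Lefty2 (0.64, adjusted p = 0.0035) and Fst (-4.71, adjusted p = 0.000355). For embryoid bodies they were Inhbb (5.11, adjusted p = 8.34e-05), Pcsk6 (1.56, adjusted p = 2e-05), Tdgf1 (0.91, adjusted p = 0.000521), Lefty1 (1.56, adjusted p = 0.000105), Lefty2 (0.56, adjusted p = 0.00568) and Fst (-8.06, adjusted p = 1.55e-05). Each rests on 1 WT library in each condition, and the Lefty2 difference for LIF withdrawal was 0.20 (adjusted p = 0.249) for the sum of both Lefty genes. For embryoid bodies the difference of that sum was 0.70 (adjusted p = 0.00112). The size given for Lefty1 alone may also depend on the division of shared reads. The filter favoured the Fst differences, since Fst passed it only through the differentiating WT libraries. No group held the 4 libraries needed to look for a library far from the others.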

How the results depend on the processing

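Of 58 member calls in the 9 comparisons, 48 passed under every alternative other than the Lefty sum and 10 were lost under at least 1. For each lost call at least 1 such alternative is given above, though not all. Leaving out a WT library removes the comparisons that use it, so it gave no check of those. The number of members called in each comparison moved by at most 2, and by over 1.5 times for the difference in the LIF withdrawal response alone, where leaving out 1 library gave 3 to 5. The replicate numbers were not shown to pair the KO libraries: same-numbered deviations correlated at 0.183, 0.022 and 0.071 over 13990 genes, and the labels are silent. With a replicate block, 5 members differed in the LIF withdrawal response instead of 3, Gdf3 (-0.38, adjusted p = 0.024) and Tdgf1 (0.34, adjusted p = 0.0425) being added, and Nodal passed for the embryoid body response (-0.43, adjusted p = 0.0156).

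Signs turned for small differences that were not called. With limma on log2(FPKM + 1) and log2(FPKM + 0.1), Acvr2b in KO against WT pluripotent culture became -0.073 and -0.082, its difference in the embryoid body response 0.11 and 0.12, Tdgf1 in KO against WT after LIF withdrawal -0.028 in both, and Nodal in KO embryoid bodies against pluripotent culture 0.082 and 0.084. Leaving out 1 library, the Acvr2b difference ran from -0.018 to 0.0025, that of Tdgf1 from -0.059 to 0.12 and that of Nodal from -0.19 to 0.14. In place of Lefty1 alone, called lower in KO in 2 conditions, the sum of both Lefty genes was 0.98 in KO against WT pluripotent culture, 1.18 after LIF withdrawal and 0.13 in WT embryoid bodies against pluripotent culture. In KO against WT embryoid bodies, Fst ran from -12.71 without KO embryoid body replicate 1, where no KO count remained, to -7.67 without replicate 2. The causes were not tested.

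DESeq2 called fewer of all genes than edgeR: 4796 against 7248 for KO versus WT in pluripotent culture, 2843 against 5010 after LIF withdrawal and 2890 against 5202 in embryoid bodies. It called 1228 against 2866 for LIF withdrawal in WT, 2929 against 5398 for embryoid bodies in WT, and 2374 against 4524 and 3286 against 5854 for the differences in response. With limma on log2(FPKM + 0.1) the median of all genes moved by -0.12 for KO versus WT in pluripotent culture, by 0.10 for embryoid bodies in KO and by 0.12 for the difference in the embryoid body response. Standard errors of Fst and of Inhbb in embryoid bodies can be smaller than counting error at so few counts, and the single WT library in each condition has no replicate check.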

Other observations

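Cer1, which encodes the secreted Nodal and BMP antagonist Cerberus, was below the level required for testing and was singled out after its values were seen. It had 32 counts in the WT embryoid body library and 1 count in each KO embryoid body library, and 0 or 1 count in every other library. Its level was 1.78 FPKM in WT embryoid bodies and 0.06 in both KO libraries. Cfc1, which encodes the Cripto-related co-receptor Cryptic, had 10 counts in WT embryoid bodies and 3 and 0 in KO, and 6 counts in WT after LIF withdrawal and 0 in both KO libraries.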
